A study of Mus musculus with 20 samples.

Results

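The BCL2 family members followed here were Bax, Bak1, Bbc3, Pmaip1, Bcl2l11, Bid, Bcl2, Bcl2l1, Mcl1 and Bcl2a1b, 10 genes taken by symbol from the deposited count tables of bone marrow and kidney. Each symbol matched 1 row in each table, so 10 of the 55486 genes listed were members. The animals were C57BL/6 mice, 10 weeks old at the start, and the labels name no engineered allele. Oxaliplatin-treated mice were injected intraperitoneally over 8 weeks with oxaliplatin, a platinum chemotherapy drug that crosslinks DNA, at 10 mg/kg in a 5% dextrose solution. Vehicle-treated mice received the 5% dextrose solution without the drug. Marrow was spun out of the leg bones 6 days after dosing ended. How the kidneys were collected is not given in the sources used here. Each tissue had 5 vehicle and 5 oxaliplatin libraries, labelled as biological replicates, for 20 libraries in all. The methods speak of male and female mice, whereas all 20 libraries contained transcripts of Y-linked genes, between 6.24 and 7.47 in log2 CPM, counts scaled to a common library size.

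The BCL2 family controls the permeability of the outer mitochondrial membrane. Bax and Bak1 are effectors: once activated they form pores that release cytochrome c, which starts caspase activation. Bcl2, Bcl2l1 (BCL-XL), Mcl1 and Bcl2a1b (one mouse copy of A1) are anti-apoptotic members that bind and restrain the effectors and their activators. Bbc3 (PUMA), Pmaip1 (NOXA), Bcl2l11 (BIM) and Bid are BH3-only proteins, which occupy the groove of the anti-apoptotic members or activate the effectors directly. In marrow, Bcl2l1 is known for keeping maturing erythroid cells alive and Mcl1 for keeping stem cells and neutrophils alive, and Bax, Bbc3 and Pmaip1 are classical targets of the DNA damage factor p53.

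The members bind one another through the BH3 segment, and its coding sequence is shown here because this segment defines the family. The coding sequences of the GENCODE vM21 annotation of GRCm38 were translated and searched for the core of the segment, a leucine followed by 3 residues of any kind, a glycine or alanine, and an aspartate. In the sequences below the 18 bases of the core are in capitals, with 6 coding bases on either side, written 5′ to 3′ on the coding strand.
Bax (effector, chr7:45466006-45466023, minus strand): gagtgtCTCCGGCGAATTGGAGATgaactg
Bak1 (effector, chr17:27022540-27022557, minus strand): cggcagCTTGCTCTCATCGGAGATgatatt
Bbc3 (BH3-only, chr7:16313773-16313790, plus strand): gcccagCTGCGGCGGATGGCGGACgacctc
Bcl2l11 (BH3-only, chr2:128147150-128147167, plus strand): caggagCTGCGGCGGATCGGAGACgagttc
Bid (BH3-only, chr6:120897298-120897315, minus strand): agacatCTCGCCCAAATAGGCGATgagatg
Bcl2 (anti-apoptotic, chr1:106712584-106712601, minus strand): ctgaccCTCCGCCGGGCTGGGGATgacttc
Bcl2l1 (anti-apoptotic, chr2:152829706-152829723, minus strand): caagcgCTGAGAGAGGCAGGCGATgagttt
Mcl1 (anti-apoptotic, chr3:95659436-95659453, plus strand): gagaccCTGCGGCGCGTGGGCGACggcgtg
Each of these 8 coding sequences held the core once and within a single exon, in effectors, BH3-only members and anti-apoptotic members alike. Bbc3 had alanine where the other 7 had glycine. Pmaip1 held 2 such cores, which are not shown, and the Bcl2a1b coding sequence held none of this form.

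Total counts ranged from 31062858 to 39293176 in vehicle marrow, from 30660153 to 41140527 in oxaliplatin marrow, from 24393007 to 28304953 in vehicle kidney and from 26314983 to 30925430 in oxaliplatin kidney. Levels are given as TMM-scaled CPM, set separately in each tissue. "Rose" and "fell" are used for an adjusted p under 0.05 in edgeR's test over all genes with enough counts, of which there were 22363 in marrow and 19293 in kidney. The median log2 fold change over all tested genes was -0.04 in marrow and 0.02 in kidney, and 0.11 and 0.16 when libraries were scaled by their size alone. With that scaling the share of calls that were higher went from 49.6% to 63.4% in marrow and from 66.8% to 82.7% in kidney. Marrow libraries held the summed markers of late erythroid cells at 26104 to 44373 CPM with vehicle and 3695 to 8315 CPM with oxaliplatin, and all 12 of these markers fell. Of 11 B cell markers 9 fell, all 7 adipocyte markers rose, and 2 of 8 T cell markers fell. The neutrophil markers summed to 21440 to 25943 CPM with vehicle, whereas oxaliplatin replicates 3 and 4 stood apart at 11005 and 13209 CPM from the other oxaliplatin libraries at 23945 to 30500 CPM. This sum is weighted to Ngp, S100a9 and Ltf, the most abundant with vehicle at means of 5799, 4888 and 4064.5 CPM. Elane, Mpo and Prtn3 instead had their highest oxaliplatin levels in replicate 3, at 826, 2101 and 728 CPM. Their vehicle maxima were 724, 1865 and 475 CPM. Kidney libraries held tubule and glomerulus markers at 17449 to 21549 CPM, against at most 14.6 CPM in marrow, and of 10 macrophage and monocyte markers 5 fell and 1 rose, with sums of 119 to 152 CPM with vehicle and 72.7 to 89.0 CPM with oxaliplatin. In bulk samples, fewer cells of a type and less RNA per cell cannot be told apart.

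In marrow, oxaliplatin raised the effector Bax and the BH3-only members Bbc3 and Pmaip1, and lowered the anti-apoptotic member Bcl2l1 and, by a smaller amount, the BH3-only member Bcl2l11. The rises lay between 1.67-fold and 2.21-fold, and the level of Bcl2l1 fell 2.23-fold. All 10 members were tested; 3 rose, against 16.3% of all tested genes, and 2 fell, against 16.8%. Beyond 1.5-fold there were 3 members higher and 1 lower, against 11.6% and 11.8% of all tested genes. The vehicle and oxaliplatin groups did not overlap for 5 members, against 24.9% of all tested genes. The median log2 fold change over the 10 members was 0.24, next to -0.04 over all genes.

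**Figure D1:**
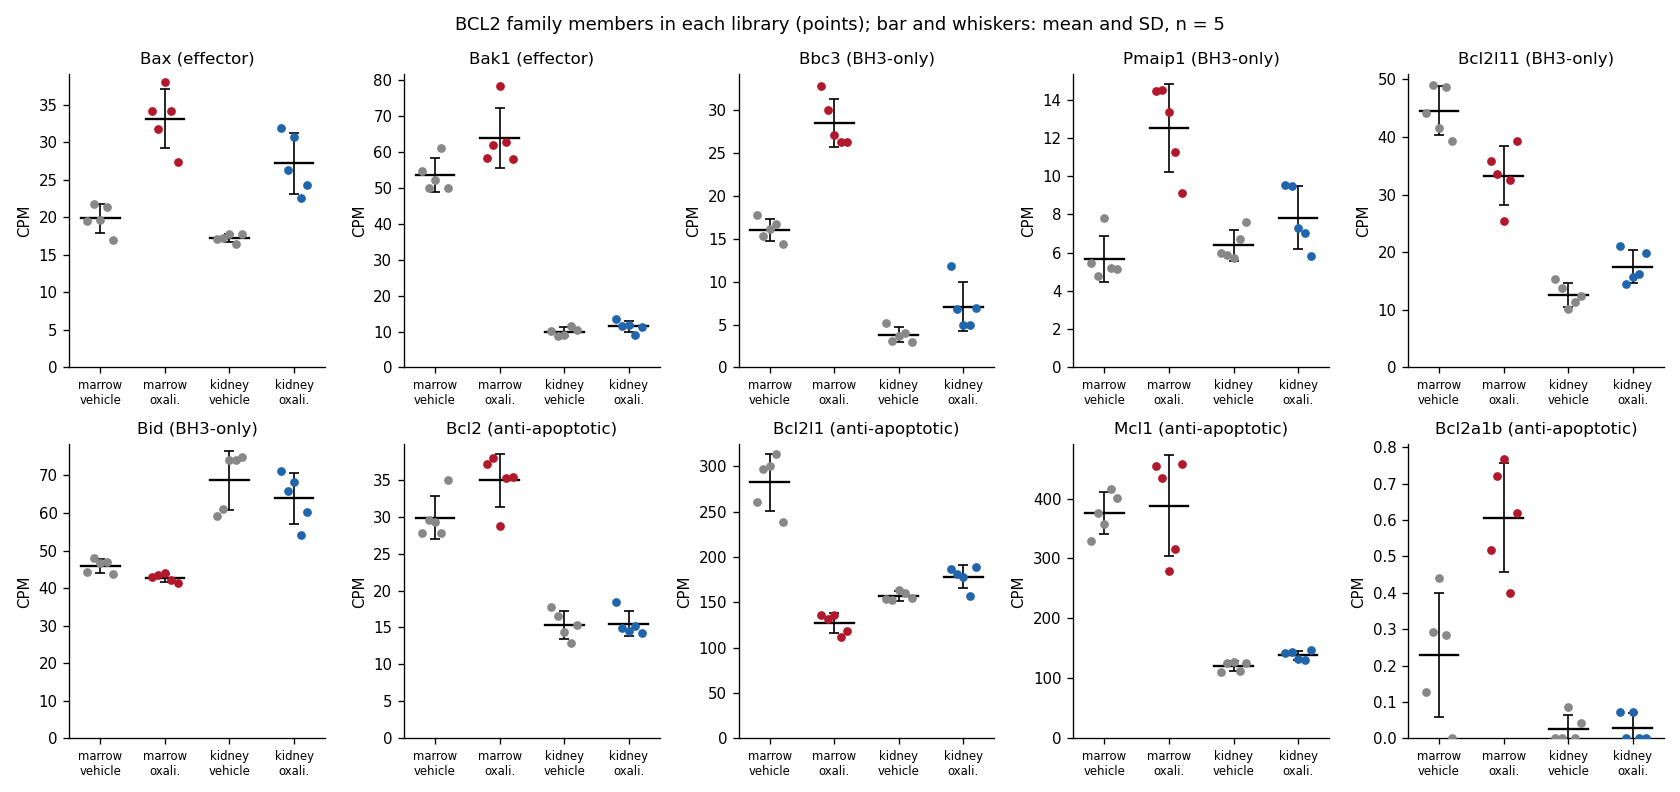
Level of each member in CPM (vertical axis, linear and starting at 0) in the 5 libraries of each group, with the mean and SD as bar and whiskers; marrow and kidney were scaled separately. The 5 oxaliplatin marrow libraries sit above every vehicle library for Bax, Bbc3 and Pmaip1 and below every vehicle library for Bcl2l1 and Bcl2l11, while Mcl1 in oxaliplatin marrow splits into libraries above and below the vehicle range.

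Bax (ENSMUSG00000003873, chr7:45461697-45466898, minus strand) stood at 19.6, 21.8, 19.6, 21.4 and 16.96 CPM in vehicle marrow, replicates 1 to 5, and at 34.2, 31.8, 38.1, 34.2 and 27.4 CPM in oxaliplatin marrow. The lowest oxaliplatin library lay above the highest vehicle library. The mean went from 19.9 ± 1.91 to 33.1 ± 3.90 CPM (SD, n = 5 each), with a log2 fold change of 0.74 (SE 0.11, adjusted p = 0.000174). Within GENCODE vM21, 12.2% of the exonic bases of Bax lie under a same-strand read-through gene, Gm45808, which had 0 counts in every library. Only unambiguous reads were counted, so reads within the shared bases may be missing from both genes.

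Bak1 (ENSMUSG00000057789, chr17:27019810-27029009, minus strand), the second effector, went from 53.6 ± 4.61 to 63.9 ± 8.32 CPM, with a log2 fold change of 0.25 (SE 0.10, adjusted p = 0.069). The groups overlapped, and 3 of 5 oxaliplatin libraries were above the vehicle maximum of 61.1 CPM. With library size alone the log2 fold change of Bak1 was 0.41 (adjusted p = 0.00525). It also passed when either vehicle replicate 4 or oxaliplatin replicate 5 was left out, with a log2 fold change of up to 0.33 and adjusted p-values down to 0.0418. An opposite-strand gene, Ggnbp1, covers 25.5% of the Bak1 exonic bases, and whether the counting used strand is not given in the sources used here.

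Bbc3 (ENSMUSG00000002083, chr7:16308393-16318205, plus strand) stood at 17.8, 15.4, 16.1, 16.7 and 14.3 CPM with vehicle and at 32.8, 30.0, 27.0, 26.3 and 26.3 CPM with oxaliplatin. The gap between the groups was wider than the range of either. Its log2 fold change was 0.83 (SE 0.10, adjusted p = 4.17e-05). Pmaip1 (ENSMUSG00000024521, chromosome 18) had the largest rise among the members that passed the test. It stood at 5.44, 4.80, 7.81, 5.19 and 5.13 CPM with vehicle and at 14.4, 14.5, 13.4, 11.3 and 9.11 CPM with oxaliplatin. Vehicle replicate 3 was the high library of its group, and it still lay below every oxaliplatin library. The log2 fold change of Pmaip1 was 1.14 (SE 0.18, adjusted p = 0.000274).

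Bcl2l11 (ENSMUSG00000027381, chr2:128126038-128162547, plus strand), a BH3-only member that binds all the anti-apoptotic members, moved the other way. It stood at 44.2, 49.1, 41.6, 48.7 and 39.4 CPM with vehicle and at 35.8, 33.5, 25.4, 32.5 and 39.4 CPM with oxaliplatin. The groups met without overlapping, since the highest oxaliplatin library (39.356 CPM) and the lowest vehicle library (39.382 CPM) were nearly equal. The log2 fold change was -0.42 (SE 0.12, adjusted p = 0.0139), 1.34-fold lower; with library size alone it was -0.27 (adjusted p = 0.0736). Bid (ENSMUSG00000004446, chr6:120891930-120916853, minus strand), which links death receptors to mitochondria after cleavage by caspase-8, went from 46.0 ± 1.86 to 42.8 ± 1.02 CPM and did not pass the test (log2 fold change -0.10, SE 0.07, adjusted p = 0.297). The opposite-strand gene Bcl2l13 covers 17.7% of the exonic bases of Bid.

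Bcl2l1 (ENSMUSG00000007659, chr2:152780668-152831728, minus strand) had the smallest adjusted p among the members and the largest difference among those that passed the test. It stood at 261, 297, 301, 314 and 239 CPM in vehicle marrow and at 136, 132, 136, 112 and 118 CPM in oxaliplatin marrow. Every oxaliplatin library was far below the lowest vehicle library. The mean went from 282 ± 31.2 to 127 ± 11.05 CPM, giving a log2 fold change of -1.15 (SE 0.10, adjusted p = 3.17e-06). All 12 late erythroid markers fell in the same libraries, from Sptb at -1.79 to Epb42 at -3.08 on the log2 scale, none of them was at 0, and their part in the difference of Bcl2l1 was not tested.

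**Figure D2:**
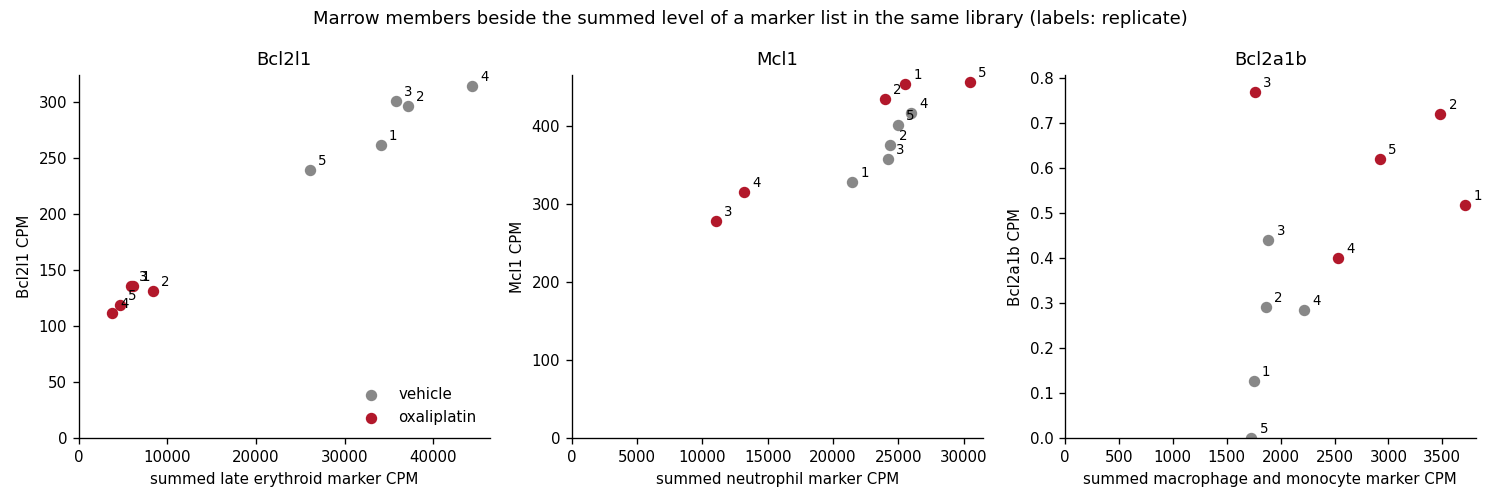
Marrow level of Bcl2l1, Mcl1 and Bcl2a1b in CPM (vertical axes, from 0) against the summed CPM of late erythroid, neutrophil, or macrophage and monocyte markers in the same library (horizontal axes, from 0); each point is 1 library, numbered by replicate, grey for vehicle and red for oxaliplatin. Oxaliplatin replicates 3 and 4 have both the lowest Mcl1, 279 and 315 CPM, and the lowest neutrophil marker sums.

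Mcl1 (ENSMUSG00000038612, chr3:95658788-95663176, plus strand), a short-lived anti-apoptotic protein, did not pass the test, and its oxaliplatin libraries were spread more widely than its vehicle libraries. It stood at 329, 376, 358, 417 and 402 CPM with vehicle and at 454, 435, 279, 315 and 457 CPM with oxaliplatin. Of the 5 oxaliplatin libraries, 3 were above the vehicle range and 2, replicates 3 and 4, below it. The log2 fold change was 0.04 (SE 0.15, adjusted p = 0.850). Without replicates 3 and 4, a choice made after the data were seen, it was 0.25 (adjusted p = 0.0456), and the number of members that passed the test went from 5 to 7. The 13 neutrophil markers summed to 11005 and 13209 CPM in those libraries, and their part in the Mcl1 level was not tested. Not all of the 13 were low there, since Elane, Mpo and Prtn3 had their highest oxaliplatin levels in replicate 3. Over all 5 oxaliplatin libraries 0 of the 13 neutrophil markers passed edgeR's test, with 0 at an unadjusted p under 0.05 and 0 by DESeq2.

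Bcl2 (ENSMUSG00000057329, chr1:106538178-106714274, minus strand), the founding anti-apoptotic member, went from 29.9 ± 2.94 to 34.9 ± 3.60 CPM, with a log2 fold change of 0.22 (SE 0.10, adjusted p = 0.109). Of its oxaliplatin libraries 4 lay above the vehicle maximum of 34.9 CPM, and replicate 3 was low at 28.8 CPM. Without oxaliplatin replicate 3 the log2 fold change was 0.29 (adjusted p = 0.0210), without replicates 3 and 4 together 0.30 (adjusted p = 0.0235), and with library size alone 0.37 (adjusted p = 0.0186).

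Bcl2a1b (ENSMUSG00000089929, chr9:89199209-89207827, plus strand) was near the detection floor. Its counts were 4, 10, 14, 10 and 0 in vehicle marrow and 18, 23, 33, 18 and 23 in oxaliplatin marrow, and it entered the test only through the higher group. The log2 fold change was 1.38 (SE 0.57, adjusted p = 0.083) in edgeR, and 1.44 (adjusted p = 0.0406) in DESeq2. Its reads are hard to assign, because the mouse has near-identical copies of the gene: the coding sequence of Bcl2a1b differs from that of Bcl2a1a at 11 of 519 bases and from that of Bcl2a1d at 6. The first 60 coding bases hold 6 of the 12 positions at which the 3 copies differ, shown here in capitals to make the near-identity visible.
Bcl2a1a: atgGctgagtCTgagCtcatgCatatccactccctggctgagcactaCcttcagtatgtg
Bcl2a1b: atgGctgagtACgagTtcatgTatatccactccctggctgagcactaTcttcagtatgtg
Bcl2a1d: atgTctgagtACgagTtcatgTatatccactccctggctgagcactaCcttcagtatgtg
The longest stretch shared by Bcl2a1b with either copy is 217 bases, and only uniquely assigned reads were counted, so the level of each copy is uncertain. A same-strand read-through gene, Gm29094, also covers 49.1% of the exonic bases of Bcl2a1b and had 0 counts in all libraries. Reads within these shared bases may likewise be missing from both genes. Bcl2a1a and Bcl2a1d rose in marrow, by 1.72 (SE 0.30, adjusted p = 0.000658) and 1.35 (SE 0.29, adjusted p = 0.00252) on the log2 scale. Of 11 macrophage and monocyte markers, 6 rose in the same libraries and 5 did not pass, with sums of 1729 to 2215 CPM in vehicle and 1761 to 3711 CPM in oxaliplatin marrow. Oxaliplatin replicate 3, the library with the most Bcl2a1b at 0.769 CPM, had the lowest of the oxaliplatin sums, 1761 CPM. The part of these markers in the A1 copies was not tested.

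In kidney, oxaliplatin raised Bax and Bbc3, with estimates beyond 1.5-fold, and Bcl2l11, Bcl2l1 and Mcl1 by less. In edgeR's test against a change of 1.5-fold, neither Bax (adjusted p = 0.910) nor Bbc3 (adjusted p = 0.484) passed. Of 9 members tested, 5 rose, against 14.4% of all tested genes; 0 fell in edgeR, with 0 at an unadjusted p under 0.05 and 0 in DESeq2, against 15.0%. Beyond 1.5-fold, 2 members were higher, against 7.68% of all tested genes, and 0 lower, against 3.81%. The groups did not overlap for 2 members, Bax and Mcl1, against 20.7% of all tested genes. The median log2 fold change of the 9 members was 0.20, next to 0.02 over all genes.

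Bax stood at 17.1, 17.2, 17.8, 16.4 and 17.8 CPM in vehicle kidney and at 31.9, 26.3, 30.7, 22.6 and 24.4 CPM in oxaliplatin kidney. The vehicle libraries lay within a narrow band and every oxaliplatin library was above it. The mean went from 17.2 ± 0.558 to 27.2 ± 4.02 CPM, and the log2 fold change was 0.65 (SE 0.09, adjusted p = 9.22e-05). Bak1 went from 9.96 ± 1.16 to 11.4 ± 1.59 CPM (log2 fold change 0.20, SE 0.12, adjusted p = 0.227). With library size alone its log2 fold change was 0.33 (adjusted p = 0.0380), and it also passed with a covariate of Y-linked genes (adjusted p = 0.0292). Every kidney library held Y-linked transcripts, at 6.24 to 6.90 in log2 CPM, so this covariate does not contrast male with female libraries.

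Bbc3 stood at 5.15, 3.12, 3.71, 4.07 and 2.92 CPM in vehicle kidney and at 11.8, 6.83, 4.96, 4.91 and 6.93 CPM in oxaliplatin kidney. Replicate 1 was the highest library in both groups, and 3 of 5 oxaliplatin libraries lay above the vehicle range. The log2 fold change of Bbc3 was 0.90 (SE 0.24, adjusted p = 0.0101), and 0.65 (adjusted p = 0.0162) without oxaliplatin replicate 1. Bcl2l11 stood at 15.4, 13.8, 10.1, 11.4 and 12.4 CPM with vehicle and at 21.0, 14.5, 15.7, 16.2 and 19.9 CPM with oxaliplatin. All but replicate 2 of the oxaliplatin libraries were above the vehicle maximum, and the log2 fold change of Bcl2l11 was 0.47 (SE 0.13, adjusted p = 0.00972). Pmaip1 went from 6.38 ± 0.795 to 7.83 ± 1.64 CPM and did not pass (log2 fold change 0.29, SE 0.15, adjusted p = 0.145), although it did with library size alone (0.43, adjusted p = 0.0301), with a covariate of Y-linked genes (0.43, adjusted p = 0.0194) and without oxaliplatin replicate 5 (0.40, adjusted p = 0.0484). Bid went from 68.7 ± 7.84 to 63.9 ± 6.84 CPM (log2 fold change -0.10, SE 0.09, adjusted p = 0.401).

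Among the anti-apoptotic members of kidney, Mcl1 stood at 110.3, 126, 127, 113 and 126 CPM with vehicle and at 143, 143, 131, 129.9 and 147 CPM with oxaliplatin. The groups lay side by side without overlap, and the log2 fold change was 0.20 (SE 0.07, adjusted p = 0.0267); it lost its call when any of 3 of the 10 libraries was left out (vehicle replicates 1 and 4 and oxaliplatin replicate 2, adjusted p up to 0.0786) and under a replicate block (adjusted p = 0.0544). Bcl2l1 stood at 153, 152, 164, 161 and 154 CPM with vehicle and at 187, 181, 178, 157 and 189 CPM with oxaliplatin. Its log2 fold change of 0.19 (SE 0.06, adjusted p = 0.040) rested on the full set of libraries: leaving out any of 9 of the 10, all but oxaliplatin replicate 4, gave adjusted p-values up to 0.0878. Bcl2 stood at 15.4 ± 1.89 and 15.5 ± 1.70 CPM (log2 fold change 0.01, SE 0.10, adjusted p = 0.958). Bcl2a1b had 0 to 2 counts in every kidney library, under the floor of 3 counts (0.0900 to 0.130 CPM at these depths), and was not tested.

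**Figure D3:**
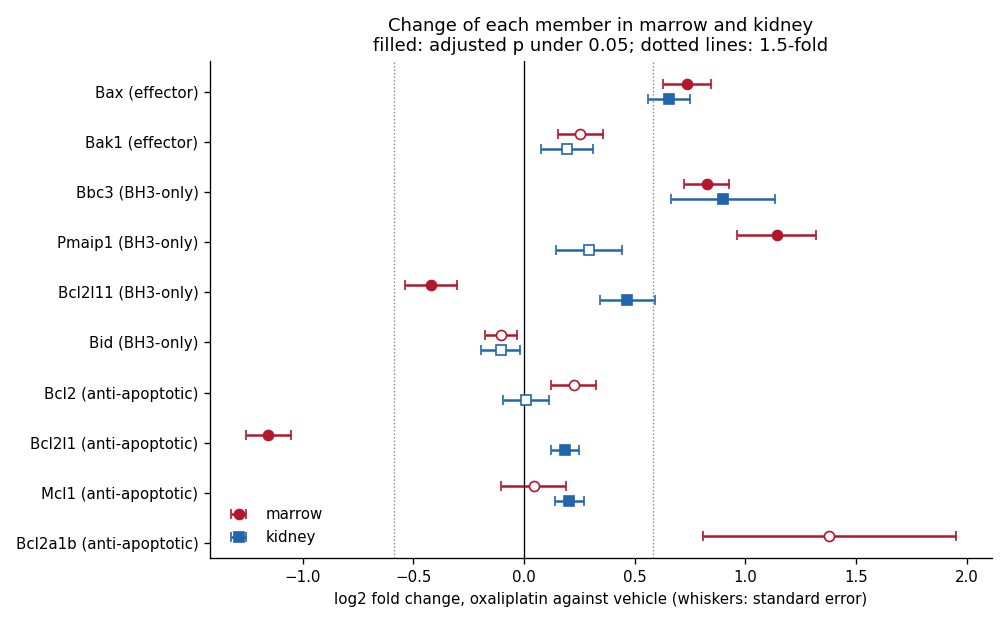
Log2 fold change of each member (horizontal axis, oxaliplatin against vehicle) with its standard error in marrow (red circles) and kidney (blue squares); filled symbols have an adjusted p under 0.05 and dotted lines mark 1.5-fold. Bax and Bbc3 are filled and to the right in both tissues, whereas Bcl2l1 is at -1.15 in marrow and 0.19 in kidney, and Bcl2l11 at -0.42 and 0.47.

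The response of 3 members differed between the tissues when the tissue by treatment interaction was tested in 1 fit over the 20 libraries; the interaction passed for 30.1% of all 24321 genes tested. Bcl2l1 had the largest of these differences, a kidney effect minus marrow effect of 1.28 on the log2 scale (SE 0.12, adjusted p = 4.92e-08). Bcl2l11 differed by 0.83 (SE 0.17, adjusted p = 0.000886), falling in marrow and rising in kidney. Pmaip1 differed by -0.90 (SE 0.25, adjusted p = 0.00743), having risen in marrow and not passed the test in kidney. The differences for Bax (-0.14, SE 0.16, adjusted p = 0.525) and Bbc3 (0.02, SE 0.26, adjusted p = 0.984) did not pass, nor did those for Bak1, Bid, Bcl2, Mcl1 and Bcl2a1b, with adjusted p-values between 0.187 and 0.774. In each of the other 26 fits tried, the interactions of Bcl2l1, Bcl2l11 and Pmaip1 passed with the same sign.

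Pro- and anti-apoptotic transcripts can be compared within a library as the log2 ratio of counts, which does not depend on the scaling between libraries. Bax relative to Bcl2l1 averaged -3.82 ± 0.0808 in vehicle marrow and -1.94 ± 0.163 in oxaliplatin marrow, a difference of 1.88. In kidney the same ratio averaged -3.18 ± 0.0665 and -2.72 ± 0.180, a difference of 0.46. Bax relative to Bcl2 was higher by 0.51 in marrow and 0.63 in kidney, and Bax relative to Mcl1 by 0.71 and 0.43. In all 6 of these comparisons each oxaliplatin library was above each vehicle library. The 6 share Bax, whose own groups did not overlap in either tissue, so they are not separate results. Most of the ratios formed in kidney did overlap, and no share over other gene pairs was computed. Bbc3 relative to Bcl2l1 was higher by 1.97 in marrow without overlap, and by 0.66 in kidney with overlap. Bcl2l11 relative to Bcl2 ran in opposite directions, lower by 0.65 in marrow (difference of -0.65) and higher by 0.45 in kidney, without overlap in either. Further ratios were higher without overlap. In marrow, Pmaip1 relative to Bcl2l1 was higher by 2.29. Bak1, Bid and Bcl2l11 relative to Bcl2l1, and Bbc3 relative to Bcl2 and to Mcl1, were also higher in marrow without overlap. All marrow ratios to Bcl2l1 share its own log2 fold change of -1.15 and are not separate results. Bak1 and Bid themselves did not pass the test in marrow, and Bcl2l11 fell. In kidney, Bbc3 relative to Bcl2 was higher by 0.83 without overlap. Some ratios moved little or the other way: Bid relative to Bcl2l1 in kidney was lower without overlap (difference of -0.29). With overlap, Bcl2l11 relative to Mcl1 (difference of -0.45) and Bid relative to Bcl2 (-0.33) were lower in marrow. Bak1 relative to Bcl2 in marrow and to Bcl2l1 in kidney differed by 0.027 and 0.0070, also with overlap. These ratios compare counts that also reflect transcript length, so their change and not their level is compared. No p is given for a combination of members. In bulk samples both counts of a ratio can come from different cells. The part of the changed cell type markers in these ratios was not tested.

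**Figure D4:**
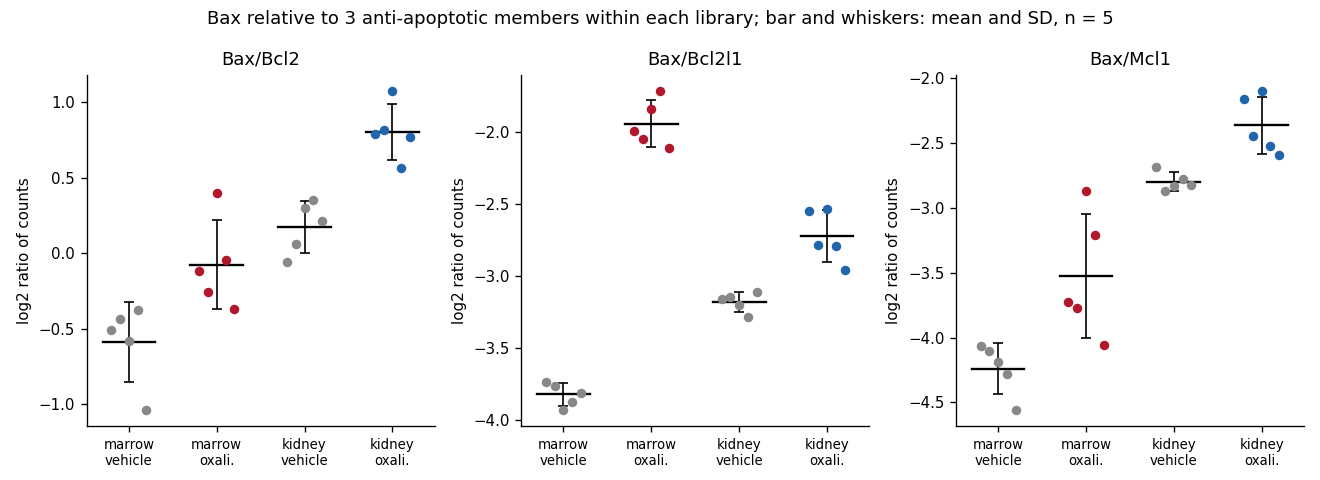
Log2 ratio of Bax counts to the counts of Bcl2, Bcl2l1 or Mcl1 (vertical axes, 2 added to each count) in each library, with the mean and SD of 5 libraries. Oxaliplatin libraries lie above vehicle libraries in all 6 pairs of groups, with the widest separation, 1.88, for Bax to Bcl2l1 in marrow.

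At baseline the tissues differed in most members, as they did in most genes: 9 of 10 members passed the comparison of vehicle kidney with vehicle marrow, against 80.7% of all tested genes. The 9 include Bcl2a1b, which entered the fit only through marrow and was under the floor in kidney. Tissue and RNA extraction chemistry cannot be told apart, since marrow RNA was taken up in Trizol before the column that both tissues shared. Bak1 was 3.99-fold lower in kidney (log2 difference -2.00, SE 0.12, adjusted p = 3.54e-13), Bbc3 3.13-fold lower, Bcl2l11 2.62-fold lower and Mcl1 2.32-fold lower. Bid was 2.01-fold higher in kidney (log2 difference 1.01, SE 0.09, adjusted p = 2.77e-10) and Pmaip1 1.51-fold higher, although for Pmaip1 the difference was not called with library size alone (0.17, adjusted p = 0.340). Bcl2 was 1.44-fold and Bcl2l1 1.33-fold lower in kidney. Bcl2a1b had 0 to 14 counts in vehicle marrow and 0 to 2 in vehicle kidney. Bax was the exception (log2 difference 0.23, SE 0.11, adjusted p = 0.066).

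Per kilobase of exon, on a scale set over all 20 libraries, Mcl1 was the most abundant member in vehicle marrow at 93.9 ± 8.31 CPM per kb, followed by Bcl2l1 at 52.5 ± 5.07 and Bak1 at 19.0 ± 1.4. Bid (11.05 ± 0.350) and Bax (10.7 ± 0.914 CPM per kb) came next and did not differ beyond their spread. Bbc3 stood at 6.45 ± 0.495, Bcl2l11 at 4.74 ± 0.403, Bcl2 at 2.79 ± 0.310, Pmaip1 at 1.77 ± 0.377 and Bcl2a1b at 0.237 ± 0.176 CPM per kb. In vehicle kidney Mcl1 (40.5 ± 2.59) and Bcl2l1 (39.4 ± 1.27 CPM per kb) were level within their spread, and Bid (22.2 ± 2.46) and Bax (12.6 ± 0.399) followed. In oxaliplatin marrow Bcl2l1 came to 24.5 ± 2.39 CPM per kb, next to Bak1 at 23.6 ± 3.95 and Bax at 18.7 ± 2.74. In that group Bcl2l1 and Bak1 lay within their spread of one another. Exon length counts every annotated exon, whether used in the tissue or not.

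Because Bax rose in both tissues, the promoters of the members were searched for the p53 half-site consensus by name, on both strands, in RefSeq windows of GRCm38.p6 of 300 bases around each annotated start. Of the 9 members with a window, 1 held a match, Bax, against 8.36% of 32851 promoters of the same length; 1 of the members' 14 windows had it. The site lies upstream of the Bax start and is shown in capitals with 10 bases on either side.
Bax promoter (chr7:45467080-45467109, minus strand): agcatatcccAGGCAAGCTTtgaacttgcg
A match describes the letters of the window and is not a bound site, and the absence of one in the Bbc3 windows says nothing about binding elsewhere in that gene.

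Other genes of the same pathway were taken as lists. Among 16 further BCL2 family genes, 13 could be tested in marrow, where 5 rose and 4 fell, against 16.3% and 16.8% of all tested genes. Bnip3, a BH3-like mitochondrial receptor of mitophagy, rose by 2.14 on the log2 scale (SE 0.17, adjusted p = 1.25e-06), from 3.48 ± 0.425 to 15.3 ± 3.33 CPM. Its paralog Bnip3l, which clears mitochondria from maturing red cells, fell by 0.99 (SE 0.16, adjusted p = 0.000354). The anti-apoptotic Bcl2l2 rose by 0.66 and the BH3-only Bad by 0.41, while Bcl2l15 fell by 1.43, the BH3-only Bmf by 0.59 and Bcl2l13 by 0.56. In kidney 10 of the 16 could be tested, and 1 rose and 3 fell, against 14.4% and 15.0% of all tested genes: Bnip3l rose by 0.29, and Bok fell by 0.55, Bik by 0.30 and Bcl2l13 by 0.17. The median log2 fold change of the list was 0.41 in marrow and -0.06 in kidney.

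A list of 23 genes held mitochondrial death genes, caspases and caspase inhibitors, among them Casp8, which acts upstream of the mitochondrion. Of these, 5 rose and 5 fell in marrow, against 16.3% and 16.8% of all tested genes. In kidney 3 rose and 5 fell, against 14.4% and 15.0%. In marrow the inhibitor of apoptosis Birc5 (survivin), also a mitotic protein, fell by 1.18 (SE 0.16, adjusted p = 7.64e-05), the initiator caspases Casp2 by 0.74 and Casp9 by 0.31, Diablo, which relieves caspases of their inhibitors, by 0.57, and the inhibitor Birc2 by 0.52. The mitochondrial nuclease Endog rose by 1.15 (SE 0.19, adjusted p = 0.000499), cytochrome c (Cycs) by 0.48, the channels Vdac1 by 0.42 and Vdac2 by 0.32, and the death receptor caspase Casp8 by 0.23. In kidney Cycs fell by 0.57 (SE 0.12, adjusted p = 0.00291), Casp8 by 0.51, Mtch2, which receives BID at the membrane, by 0.34, Vdac1 by 0.25 and Aifm1, a mitochondrial flavoprotein, by 0.21. Apaf1, the scaffold that cytochrome c activates, rose by 0.48 in kidney (SE 0.12, adjusted p = 0.00634), and Birc5 by 0.89 from a level of 0.793 ± 0.374 CPM. The list medians were -0.07 and -0.01.

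Of 17 regulators tested in each tissue, 5 rose and 2 fell in marrow, against 16.3% and 16.8% of all tested genes. In kidney 5 rose and 1 fell, against 14.4% and 15.0%. The p53 target Cdkn1a, a cyclin-dependent kinase inhibitor, rose by 4.37 in marrow (SE 0.18, adjusted p = 1.30e-08), from 6.57 ± 0.405 to 136 ± 31.8 CPM. In kidney it rose by 5.25 (SE 0.31, adjusted p = 7.20e-06), from 3.04 ± 1.15 to 115 ± 31.8 CPM. Mdm2, the ligase that restrains p53, rose by 0.26 in marrow and 0.58 in kidney. Trp53 itself stood at 100.4 ± 9.63 and 100.1 ± 27.9 CPM in marrow (adjusted p = 0.987) and at 26.1 ± 3.13 and 28.2 ± 1.94 CPM in kidney (adjusted p = 0.345). The nuclease Aen rose by 0.86 and 1.18 in marrow and kidney, and Trp53inp1 by 0.96 in kidney, with 0.13 in marrow (adjusted p = 0.617). Foxo3, a transcription factor known to drive Bcl2l11 and Bbc3, fell by 1.28 in marrow (SE 0.09, adjusted p = 3.83e-07) and rose by 0.59 in kidney (SE 0.15, adjusted p = 0.0101). The co-chaperone Bag3 rose by 0.82 and the stress gene Sesn2 by 0.28 in marrow, where Ddit3 (CHOP), a transcription factor of the unfolded protein response, fell by 0.38 (SE 0.10, adjusted p = 0.0103). Perp, a membrane protein encoded by a p53 target, fell by 0.38 in kidney (SE 0.08, adjusted p = 0.00133).

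**Figure D5:**
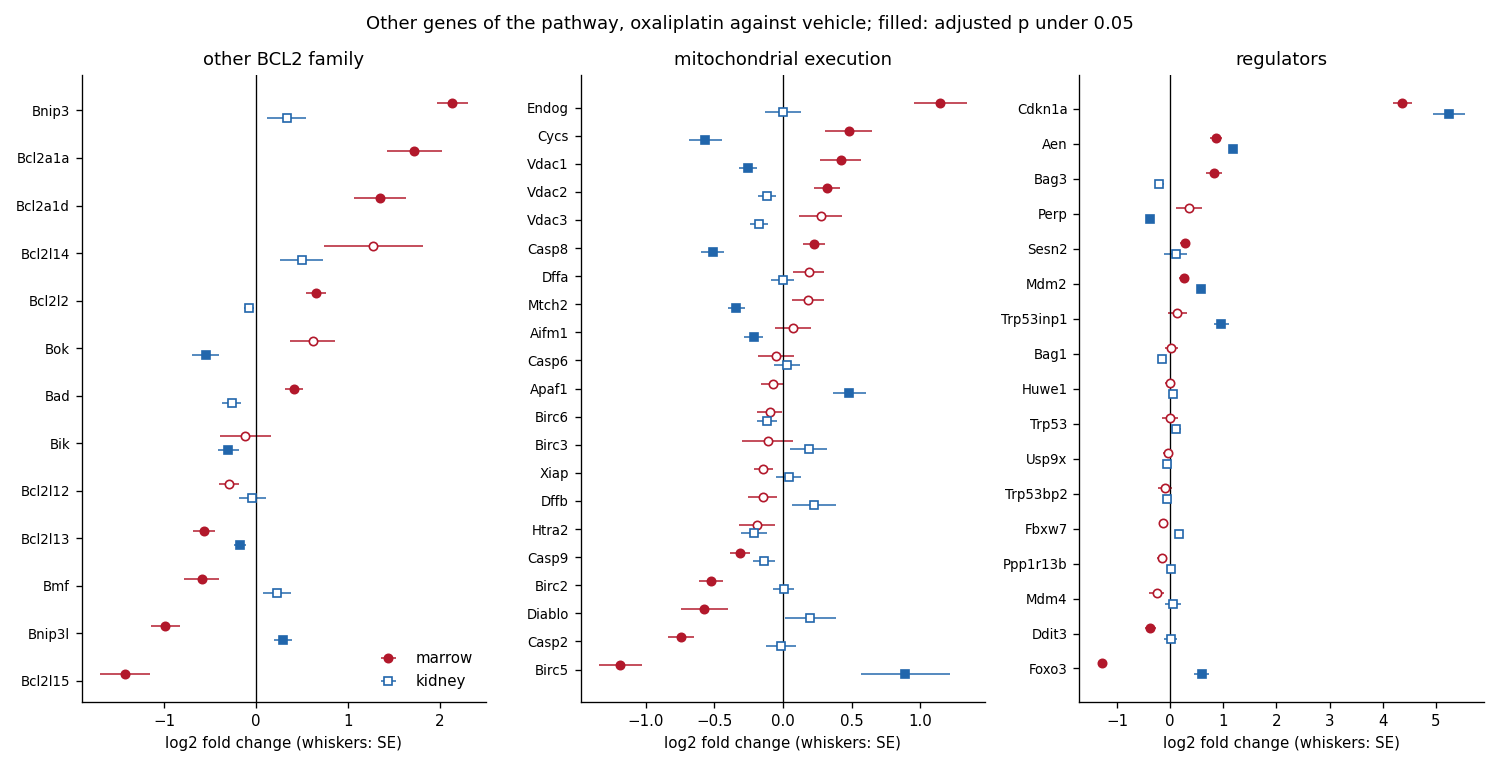
Log2 fold change with standard error (horizontal axes) of the other BCL2 family genes, the mitochondrial execution genes (all but 2) and the regulators that could be tested, in marrow (red circles) and kidney (blue squares); filled symbols have an adjusted p under 0.05. Bnip3 at 2.14 in marrow and Cdkn1a at 4.37 and 5.25 lie farthest from 0.

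The genes whose log2 CPM followed Bax most closely over the 20 libraries were Phlda3 (Pearson r 0.959), Mgmt (0.927), Tnfrsf10b (0.926), Eda2r (0.921) and Aen (0.919). For Bcl2 they were Lpxn (0.954), Serpina3g (0.953), Rbms1 (0.951), Tnfsf8 (0.945) and Serpina3i (0.945). These values, the highest of 24321 genes, are descriptions over libraries that differ in tissue, treatment and depth. Differences between the groups therefore enter each r.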

How the data were processed

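The authors deposited raw counts of uniquely aligned, unambiguous reads per gene, 1 table per tissue, without normalization. Per the methods, reads were aligned with STAR to Ensembl release 101 and counted in Partek Flow, with RNA of an integrity number above 7; the submitters' processing notes name STAR, featureCounts and Salmon, and the library chemistry is described in more than one way. Of the 55774 lines of a table, 287 that repeated a gene and 1 lacking a value were dropped. Total counts, given with the results, set the precision; floors (3 counts) cover counting error only. No libraries were duplicates (chi-square per degree of freedom at least 7.51 within groups).

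Each tissue was filtered with filterByExpr (minimum count 10), scaled by TMM and tested, two-sided, with edgeR 4.0.16 quasi-likelihood (R 4.3.3, limma 3.58.1), treatment as the only term, and Benjamini-Hochberg adjustment over all genes tested. Fold calls used 1.5. Interaction and baseline came from 1 fit over 20 libraries. Ratios used a prior count of 2. The steps were tested on simulated data. A simulated 2-fold change passed for 50.5% of changed genes in marrow, 73.2% in kidney and 20.4% in the interaction. For a 1.5-fold change these shares were 9.4%, 50.5% and 3.1%. Changed genes were few and drawn at random over all levels. In marrow they were 97 at 2-fold and 96 at 1.5-fold of 21846 tested, whereas 7413 genes passed in the real marrow data. An adjusted p is harder to pass with so few changed genes, so these shares do not give the power for the members. A member that did not pass may still have changed. False calls made up 6.5% of the calls in marrow, 4.7% in kidney and 0% in the interaction. Alternatives were DESeq2 1.42.0, other scalings and filters, hemoglobin genes left out, a covariate of Y-linked genes, a replicate block, a test against 1.5-fold, and libraries left out. Members and lists were chosen with earlier results of these data known. All members were named; from the other lists, up to 6 genes per tissue and list with the largest change among those with an adjusted p under 0.05 and a change beyond 1.5-fold, plus Cdkn1a, Mdm2 and Trp53. Other genes with an adjusted p under 0.05 were named after their values were seen. The values of 2 genes of the execution list, which stay in its counts and median, are not reported here. Likeness took the 5 genes with the highest Pearson r. Sequences came from GENCODE vM21 and RefSeq. Figures used Python 3.11.15 and matplotlib 3.10.9.

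Replicate numbers are shared between groups, and the main fits treated all libraries as unpaired. Correlations of deviations between same-numbered libraries ran from -0.15 to 0.23 between treatments and from -0.09 to 0.21 between tissues. Differently numbered libraries were not compared, so these values cannot show whether kidney and marrow of the same number came from the same mouse.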

Additional observations from a re-analysis of the deposited data

Results flagged for a closer look

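In the interaction test 3 of 10 members passed, next to 30.1% of all genes tested: kidney effect minus marrow effect was 1.28 for Bcl2l1, 0.83 for Bcl2l11 and -0.90 for Pmaip1 on the log2 scale. In 4 groups of 5 libraries, over 3 members, 1 library lay far from the rest. Bak1 was 78.3 CPM in marrow oxaliplatin replicate 3, against 58.1 to 62.9 CPM in the others. Pmaip1 was 7.81 CPM in marrow vehicle replicate 3, against 4.80 to 5.44 CPM. Bcl2 was 34.9 CPM in marrow vehicle replicate 5, against 27.8 to 29.5 CPM, and 18.4 CPM in kidney oxaliplatin replicate 1, against 14.3 to 15.3 CPM. Of 38 groups tested in this way, chance flags about 1 in 20.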

How the results depend on the processing

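The rises of Bbc3 and Pmaip1 and the fall of Bcl2l1 in marrow held under every alternative run, and so did the 3 interactions. Tested against a change of 1.5-fold, 2730 genes and 3 members passed in marrow (Bbc3, Pmaip1 and Bcl2l1) and 454 genes and 0 members in kidney, a stricter question by construction. With a replicate block, 3 members passed in kidney in place of 5, as Bcl2l1 (adjusted p = 0.0981) and Mcl1 (adjusted p = 0.0544) lost their calls, and Bax passed at baseline (0.23, adjusted p = 0.0345). The block changed no other call of a member. The call of Bcl2l1 in kidney was also lost with median ratio size factors (adjusted p = 0.0521) and with no filter beyond 1 count (adjusted p = 0.0807). Leaving out 1 library at a time gave 3 to 5 members in kidney and 5 to 6 in marrow. Signs turned only among values that had not passed: Bid with library size alone (0.044 in marrow, 0.028 in kidney), Mcl1 in marrow with the Y-linked covariate (-0.025), Bcl2 in kidney with DESeq2 (-0.0053), Bax at baseline with library size alone (-0.20), and the interaction of Bbc3 under the replicate block (-0.027). Without marrow oxaliplatin replicates 3 and 4, the interactions of Bax (0.016), Bak1 (0.051), Bid (0.016) and Mcl1 (-0.041) turned as well. With 1 library left out, Mcl1 in marrow ranged from -0.017 to 0.14, Bcl2 in kidney from -0.053 to 0.069, and the interactions of Bbc3 from -0.25 to 0.16 and of Bid from -0.12 to 0.00022. The cause was not tested. Depth limits Bcl2a1b, which had at most 33 counts in any library.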
